A study of Gallus gallus with 54 samples.

Results

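INHA, INHBA, INHBB and FST encode the parts of the inhibin, activin and follistatin system, and they are described here in the granulosa layer and the theca layer of chicken ovarian follicles. They were taken by gene name from the annotation of the transcript files, which gave 4 of the 26619 genes of the count table. INHA encodes the alpha subunit of inhibin. INHBA and INHBB encode the beta A and beta B subunits, which form inhibin A and inhibin B when joined to the alpha subunit and activins when joined to each other. FST encodes follistatin, a secreted protein that binds activins and keeps them from their receptors. Activins signal through type II and type I serine/threonine kinase receptors and the transcription factors SMAD2 and SMAD3, and inhibins, bound together with betaglycan (TGFBR3), compete for the type II receptors. In the ovary these proteins are made mainly by granulosa cells, and inhibin released into the blood lowers the secretion of follicle-stimulating hormone by the pituitary gland.

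White Leghorn hens of 35 to 40 weeks received 15 mg of bicalutamide, an antiandrogen (bic group), 100 mg of mestanolone, an androgenic steroid (mes group), or water (NC group). Drug feeding lasted several days and follicles were collected 1 day after it ended. Granulosa cells (GCs) and theca cells (TCs) were separated from small yellow follicles of 6 mm (syf 6 mm), which have not been selected for ovulation, from F5 follicles, the recently selected ones, and from F1 follicles, the largest ones. RNA sequencing gave 3 libraries for each of 18 groups, 54 in all, and where a hen had more follicles than the usual order holds, the study counted all its unlabelled large ones as F1, so that F1 is not the same stage in every hen. The question was how blocking or driving the androgen receptor changes follicles at these stages.

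The libraries held 33310408 to 64933667 counts. Libraries that carried 1 hen and library number were summed, which left 50 samples: the bic F1 GC libraries came from 1 hen, the bic F1 TC and NC F1 GC libraries from 2 hens each, and the other 15 groups from 3 hens. Levels are given as CPM, the gene's count scaled by the library's total. A test is said to be passed where edgeR's quasi-likelihood fit gave p no higher than 0.05 after Benjamini-Hochberg adjustment and where 1 of the compared groups averaged 1 FPKM or more (FPKM also scales by transcript length). GC libraries that stood apart were replicate 2 of the bic syf 6 mm group, with 0.587 FPKM of AMH, and replicate 2 of the bic F5 group, with 11680 FPKM summed over the 10 theca markers against 20.1 and 27.2 FPKM in the other bic F5 libraries. The former had 496 FPKM summed over 6 granulosa markers, 3 of them under 1 FPKM, against 812.7 and 1346 FPKM in the other bic syf 6 mm libraries. Every F1 GC library also had 3 of the 6 under 1 FPKM. Both libraries were picked from these same data, so that results without them are no separate support. Theca markers also reached 2012 FPKM in replicate 1 of the bic syf 6 mm group and 2588 and 2511 FPKM in replicates 1 and 3 of the NC syf 6 mm group, against 9164 to 12590 FPKM in TCs. In TCs GATA4, 1 of 6 granulosa markers (FSHR, AMH, FOXL2, GATA4, OCLN and WT1), reached 45.4 to 83.1 FPKM in 4 libraries of F5 and F1 follicles. The 6 markers summed to 351.1 to 462.8 FPKM in these libraries and to at most 361.8 FPKM in the other TCs of F5 and F1 follicles. In syf 6 mm TCs the sum was 359.9 to 540.2 FPKM, so that it did not set the 4 libraries apart. In such bulk samples fewer cells of a type and less RNA per cell cannot be told apart.

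INHA lies on chromosome 7 from position 22176226 to 22177904 on the minus strand of Gallus_gallus-5.0, as 1 transcript of 990 bases. In NC GCs it had 30.6, 211 and 17.5 CPM in syf 6 mm follicles, 2262, 1692 and 1650 CPM in F5 follicles, and 1518, 1454 and 1632 CPM in F1 follicles. The alpha subunit rose with selection: every F5 and F1 library lay far above every syf 6 mm library, and on the CPM scale the F1 libraries lay below the F5 libraries by a small margin. The F5 mean was 21.6-fold that of syf 6 mm follicles (log2 fold change 4.74 ± 1.04, SE, 3 hens each, edgeR adjusted p = 0.0415). F1 over syf 6 mm gave 5.03 ± 1.19 (adjusted p = 0.0295), and F1 over F5 gave 0.23 ± 0.24 (adjusted p = 0.498), so that the direction between F1 and F5 turned with the scaling, TMM factors against total counts (ratio of mean CPM 0.835).

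In mes GCs INHA had 52.3, 51.8 and 56.4 CPM in syf 6 mm follicles, 1649, 1869 and 823.7 CPM in F5 follicles and 378.4, 1221 and 1007 CPM in F1 follicles. The syf 6 mm libraries stood close together and all F5 and F1 libraries were above them. The log2 fold change of F5 over syf 6 mm was 4.99 ± 0.34 (adjusted p = 0.000577) and F1 over syf 6 mm 4.54 ± 0.53 (adjusted p = 0.00215). In bic GCs it had 83.9, 110.4 and 93.4 CPM in syf 6 mm follicles, 1607, 0 and 1584 CPM in F5 follicles and 1008, 1091 and 1043 CPM in F1 follicles. The 0 came from the F5 library that held theca markers. A count of 0 among its 43503314 counts does not show that the transcript was absent. With all libraries no bic INHA contrast passed (F5 over syf 6 mm 3.58 ± 2.49, adjusted p = 1.00); without the syf 6 mm and F5 libraries of hen 2 the log2 fold change was 4.40 (adjusted p = 0.0166).

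INHBA lies on chromosome 2 from position 50745139 to 50762744 on the minus strand, with transcripts of 4267 and 1672 bases. In NC GCs it had 11.8, 2.51 and 3.52 CPM in syf 6 mm follicles, 85.8, 73.2 and 61.2 CPM in F5 follicles and 1.91, 1.303 and 8.69 CPM in F1 follicles. The beta A subunit was high at F5 alone, with no F5 library overlapping those of either other stage. F5 over syf 6 mm was 12.4-fold by the means (log2 3.96 ± 0.64, adjusted p = 0.0236), and F1 over F5 fell by 3.37 on the log2 scale (SE 0.73, adjusted p = 0.0183). F1 over syf 6 mm was 0.65 ± 1.00 (adjusted p = 0.632).

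In the drugged hens the F1 libraries of INHBA were not down at the syf 6 mm level. In mes GCs the gene had 1.37, 4.32 and 2.37 CPM in syf 6 mm follicles, 18.4, 31.1 and 40.7 CPM in F5 follicles and 10.45, 25.5 and 458.5 CPM in F1 follicles. The F5 libraries lay above the syf 6 mm libraries, and the F1 libraries ranged widely with 1 very high. F5 over syf 6 mm was 3.71 ± 0.51 (adjusted p = 0.00421), F1 over syf 6 mm 6.41 ± 1.67 (adjusted p = 0.0252) and F1 over F5 2.73 ± 1.37 (adjusted p = 0.191). In bic GCs it had 11.4, 876.1 and 15.98 CPM in syf 6 mm follicles, 124.5, 8.41 and 205.2 CPM in F5 follicles, and 694.1, 699.1 and 722.7 CPM in the F1 libraries of 1 hen. The syf 6 mm library at 876.1 CPM and the F5 library at 8.41 CPM are the 2 that stood apart, both from hen 2. No bic contrast of INHBA passed with them, and without them F5 over syf 6 mm was 3.83 (adjusted p = 0.0238) and F1 over syf 6 mm 6.10 (adjusted p = 0.0171).

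INHBB lies on chromosome 7 from position 25710325 to 25720800 on the plus strand, with transcripts of 4916 and 2279 bases. In NC GCs it had 880.4, 2939 and 969.7 CPM in syf 6 mm follicles, 782.1, 283.4 and 446.3 CPM in F5 follicles, and 2.43, 2.21 and 1.60 CPM in F1 follicles. The beta B subunit was abundant before and just after selection and close to absent in the largest follicle. F1 over F5 fell by 7.49 on the log2 scale (SE 0.65, adjusted p = 0.00162), a 257-fold lower mean, and F1 over syf 6 mm was -8.77 ± 0.98 (adjusted p = 0.00430). All F5 libraries were below all syf 6 mm libraries, with a log2 fold change of -1.35 ± 0.60 (adjusted p = 0.184).

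In mes GCs INHBB had 693.7, 847.9 and 489.7 CPM in syf 6 mm follicles, 2166, 1254 and 410.5 CPM in F5 follicles and 0, 1.20 and 1.02 CPM in F1 follicles. Here the syf 6 mm and F5 libraries overlapped, and F1 was again almost empty. F1 over F5 was -10.40 ± 1.59 (adjusted p = 0.0129) and F1 over syf 6 mm -9.29 ± 1.32 (adjusted p = 0.00391). In bic GCs it had 954.6, 0.610 and 783.1 CPM in syf 6 mm follicles, 1592, 1.40 and 606.2 CPM in F5 follicles and 1.17, 1.52 and 1.01 CPM in F1 follicles. Both libraries of hen 2 were as low as the F1 libraries. Without them F1 over F5 was -9.60 (adjusted p = 0.0129) and F1 over syf 6 mm -9.05 (adjusted p = 0.00512), while with them neither passed (adjusted p = 0.380 and 0.331).

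FST lies on chromosome Z from position 16072452 to 16078209 on the plus strand, with transcripts of 1561 and 1032 bases. In NC GCs it had 207.3, 546.5 and 482 CPM in syf 6 mm follicles, 19.7, 24.6 and 33.7 CPM in F5 follicles and 2.36, 3.34 and 1.75 CPM in F1 follicles. Follistatin transcripts fell at each step and no library of a stage overlapped the next. On the log2 scale F5 over syf 6 mm was -3.65 ± 0.44 (adjusted p = 0.0130, a 15.8-fold lower mean) and F1 over F5 -3.03 ± 0.43 (adjusted p = 0.00510, an 11.3-fold lower mean).

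In mes GCs FST had 1007, 816.4 and 866.4 CPM in syf 6 mm follicles, 161.4, 89.1 and 98.2 CPM in F5 follicles and 1.74, 1.95 and 4.01 CPM in F1 follicles. The same step-wise descent was seen from a higher start. F5 over syf 6 mm was -2.71 ± 0.26 (adjusted p = 0.00128) and F1 over F5 -5.21 ± 0.47 (adjusted p = 0.00514). In bic GCs it had 447.9, 62.7 and 530.3 CPM in syf 6 mm follicles, 116.8, 6.99 and 59.1 CPM in F5 follicles and 1.12, 1.01 and 0.825 CPM in F1 follicles. FST was the single member with a bic contrast that passed with all libraries, F1 over syf 6 mm at -8.04 ± 1.65 (adjusted p = 0.0340). Its F1 libraries came from 1 hen, and the contrast did not pass without replicate 1 (adjusted p = 0.0683) or replicate 3 (adjusted p = 0.0776) of the syf 6 mm group.

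Markers of the oocyte fell with FST at each step in mes GCs and from syf 6 mm to F5 in NC GCs. In NC GCs their sums at F5 and F1 overlapped, with all 6 genes under 1 FPKM in each library of these stages. INHBB was low with the oocyte markers at F1, but from syf 6 mm to F5 its mean went from 677.1 to 1277 CPM in mes GCs. In NC GCs that mean went from 1596 to 504 CPM, a fall that did not pass (edgeR adjusted p = 0.184). Summed over DAZL, DDX4, GDF9, BMP15, ZAR1 and FIGLA, 6 of 6 with a locus, the oocyte markers had 3.77 to 50.05 FPKM in syf 6 mm, 0.938 to 51.8 FPKM in F5 and 0 to 0.131 FPKM in F1 GCs of bic hens. They had 32.0 to 42.8, 2.52 to 3.74 and 0.0347 to 0.538 FPKM at these stages in mes hens, and 24.6 to 139, 0.265 to 2.30 and 0.0542 to 0.380 FPKM in NC hens. In each F1 library of the 3 treatments 3 to 6 of the 6 genes were at 0. Of the bic libraries that stood apart, that of syf 6 mm follicles was the one at 3.77 FPKM, with 4 of 6 genes at 0, and that of F5 follicles the one at 51.8 FPKM, where INHBB and FST were low. The part of oocyte RNA in the stage contrasts was not tested.

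**Figure D1:**
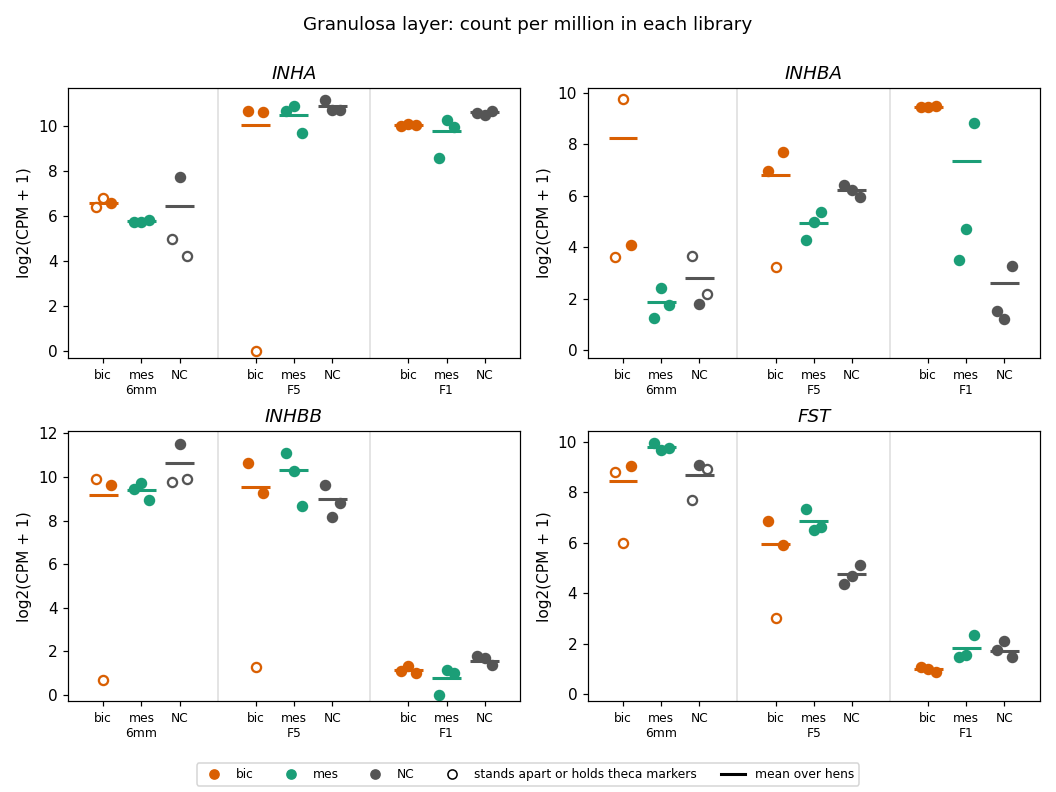
Level of each gene in every GC library as log2(CPM + 1), by stage (syf 6 mm, F5, F1) and treatment, with bars for the mean over hens and open points for the libraries that stood apart or held theca markers. INHA is high at F5 and F1, except for 1 bic F5 library at 0, and INHBB and FST are near the bottom at F1. INHBA at F1 lies between 1.303 and 8.69 CPM in the NC group (2 hens) and at 694.1 to 722.7 CPM in the bic group (1 hen).

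Counted over members, 3 of 4 passed in NC GCs for F5 over syf 6 mm, where 9.11% of all genes tested passed, 3 of 4 for F1 over F5 (29.6% of all genes) and 3 of 4 for F1 over syf 6 mm (29% of all genes). In mes GCs the counts were 3 of 4 (24.6% of all genes), 2 of 4 (18.2%) and 4 of 4 (34.9%). In bic GCs they were 0 of 4 (0% of all genes), 0 of 4 (0.146%) and 1 of 4 (0.479%). Of the 12 bic tests 4 had an unadjusted p under 0.05, and DESeq2 and limma-voom passed 4 each. Among all genes 650 of 16744, 2314 of 20478 and 2696 of 20478 had such an edgeR p in the 3 bic contrasts. Over the same 3 contrasts DESeq2 passed 147, 1668 and 1719 of all genes and limma-voom 2167, 1857 and 3457. Without hen 2's syf 6 mm and F5 libraries edgeR passed 9. Those libraries were picked from these same data and hold outlying values of the members, so that the 9 is no separate support. The median log2 fold change over all genes was -0.151 for F1 over F5 and -0.359 for F1 over syf 6 mm in NC GCs, and -0.186 and -0.210 in bic GCs.

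The NC calls rested on few hens. The hen was used as a block, since the stages shared hens, though NC hen 1 had no F1 GC library and so added nothing to the blocked F1 contrasts. With the block 5 of the 9 NC calls were made: F1 over F5 of INHBA had an adjusted p of 0.0530, and the F1 over syf 6 mm contrasts had 0.112 for INHA and 0.0544 for both INHBB and FST. For F1 over syf 6 mm the blocked fit passed 0 of all genes, against 4981 without the block, so that this loss is not particular to the members. For F1 over F5 it passed 4251, against 4631. In mes GCs the block took away F1 over F5 of INHBB (adjusted p = 0.0573) and F1 over syf 6 mm of INHBA (4.58 on the log2 scale, adjusted p = 0.0690). Of all genes the block passed 694 in the former contrast, against 2777 without it, and 3579 in the latter, against 5575. Leaving out either hen of the NC F1 group left 1 hen there, so that its contrasts moved to a fit on all GC samples. The change of fit and the loss of a hen cannot be told apart there, and the sign of every called contrast was kept. Without replicate 3 of the NC syf 6 mm group 5 calls were made, again with every sign kept. For F5 over syf 6 mm in NC GCs, INHA did not pass in 5 of the 6 fits with 1 library left out (adjusted p from 0.0895 to 0.126), nor INHBA in 4 of 6 (0.0557 to 0.0908), nor FST without syf 6 mm replicate 3, F5 replicate 2 or F5 replicate 3 (0.0562, 0.0741 and 0.0680). In mes GCs INHBA did not pass for F1 over syf 6 mm without any 1 syf 6 mm library (0.0777 to 0.0934), nor INHBB for F1 over F5 without F5 replicate 1 or 2 (0.0544 and 0.0619). With all samples in one fit 6 of 9 calls were made in both NC and mes GCs: for F5 over syf 6 mm INHA and INHBA had adjusted p of 0.156 and 0.294 in mes hens and of 0.113 and 0.156 in NC hens, FST had 0.0960 in mes hens, and F1 over F5 of INHBA had 0.207 in NC hens. The theca marker signal of the NC syf 6 mm libraries moved with INHA, which had 30.6 and 17.5 CPM where the markers were high and 211 CPM in the library with 81.95 FPKM of them. Leaving out both libraries high in these markers left 1 syf 6 mm hen, so that all GC samples entered the fit. F5 over syf 6 mm was then at 3.43 for INHA, 5.15 for INHBA and -4.11 for FST. Such a fit drops hens together with the marker signal and cannot give the part of the theca markers, which was not tested.

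**Figure D2:**
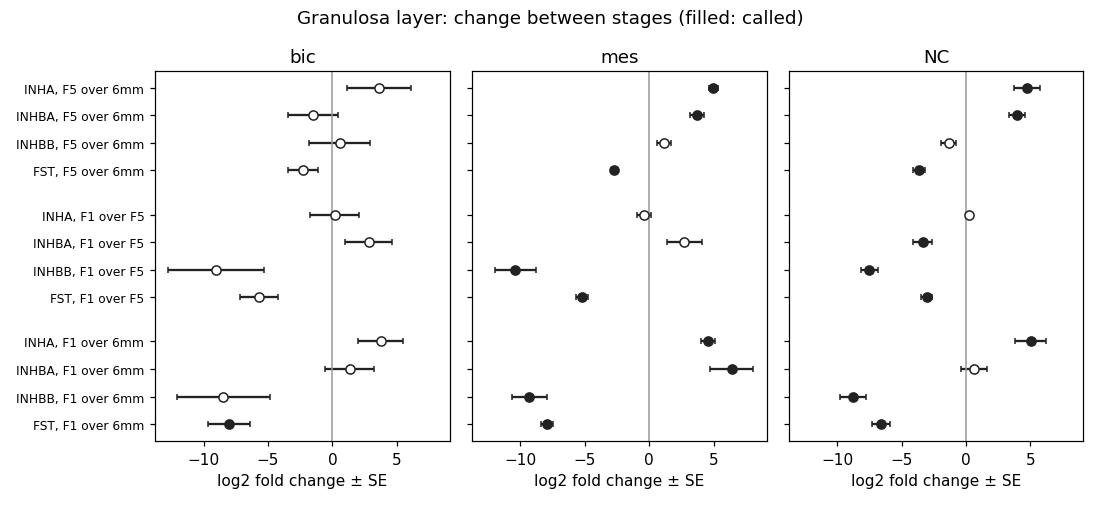
Log2 fold change between stages in GCs with its standard error (edgeR), for bic, mes and NC hens, with filled points for contrasts that passed. FST and INHBB lie to the left in every F1 contrast and INHA to the right in every contrast with syf 6 mm, while F1 over F5 of INHBA lies to the right in mes (2.73) and bic (2.83) hens and to the left in NC hens (-3.37).

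Levels of different genes were compared per transcript length, as FPKM, within the same libraries. The authors' FPKM depend on how reads were split between a long and a short transcript: in NC F5 GCs the short INHBA transcript was given 62.5%, 1.06% and 2.71% of the gene's coverage, and the short INHBB transcript was given at most 0.443% of it in all NC syf 6 mm and F5 libraries against 53.9% to 58.7% in the mes F5 libraries. Differences of a few-fold between genes or groups on the FPKM scale may hold this split, and the tests above used counts per gene.

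In NC syf 6 mm GCs INHBB had 168.9, 574.8 and 188 FPKM and FST had 156.5, 401.5 and 373.2 FPKM, against 29.1, 204.8 and 16.8 FPKM of INHA and 0.746 to 2.77 FPKM of INHBA. Before selection the beta B subunit and follistatin led, and INHBA was 0.129% to 1.62% of the summed beta subunits. In NC F5 GCs INHA led with 2173, 1648 and 1596 FPKM, INHBB had 151.5, 55.9 and 87.3 FPKM, INHBA 37.7, 16.8 and 14.3 FPKM and FST 15.1, 19.5 and 25.1 FPKM. INHBA then made up 14.1% to 23.1% of the beta subunits, and the summed beta level was 0.0441 to 0.0870 of the alpha level. In NC F1 GCs INHA stood at 1483, 1420 and 1598 FPKM with INHBA, INHBB and FST all at or under 2.68 FPKM, so that the alpha subunit was left nearly without a beta transcript.

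The same reading in drugged F1 follicles differed in INHBA. In bic F1 GCs INHBA had 171.6, 173 and 178.9 FPKM against 974, 1055 and 1008 FPKM of INHA, so that the beta to alpha ratio was 0.164 to 0.178. These 3 libraries came from 1 hen, so that their narrow range does not show the spread between hens. In mes F1 GCs INHBA had 2.93, 6.99 and 118.9 FPKM and the ratio was 0.00794, 0.00605 and 0.121. In NC F1 GCs the ratio was 0.000748 to 0.00176. These shares and ratios are descriptions and were not tested.

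For the order of group means over the 18 groups, INHA was highest in NC F5 GCs (1868 CPM), above NC F1 GCs (1559 CPM) with no overlap of the libraries on this scale, an order that the edgeR fit turned (F1 over F5 0.23), and the following GC groups of F5 and F1 overlapped one another down to mes F1 GCs (868.8 CPM). INHBA was highest in bic F1 GCs (705.3 CPM, 1 hen), followed by bic syf 6 mm (301.2 CPM), mes F1 (164.8 CPM), bic F5 (112.7 CPM) and NC F5 GCs (73.4 CPM), each of which overlapped its neighbour. INHBB was highest in NC syf 6 mm GCs (1596 CPM), with overlap from each group to the next down to NC F5 GCs (504 CPM), and every TC group and every F1 GC group came after. FST was highest in mes syf 6 mm GCs (896.5 CPM), clear of NC (411.9 CPM) and bic syf 6 mm GCs (346.9 CPM), which overlapped each other.

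Among the drug over NC tests of the members in GCs, that of FST in mes F5 follicles had the lowest unadjusted p. At F5 FST had 161.4, 89.1 and 98.2 CPM in mes hens, against 19.7, 24.6 and 33.7 CPM in NC hens. Every mes library was above every NC library, and the mes mean was 4.47-fold that of NC. The log2 fold change was 2.11 ± 0.30, with an unadjusted p of 0.000217, the 11th smallest of the 15507 genes tested, and an edgeR adjusted p of 0.243. At syf 6 mm FST had 1007, 816.4 and 866.4 CPM in mes hens, against 207.3, 546.5 and 482 CPM in NC hens, again with no overlap. There the log2 fold change was 1.17 ± 0.36 (adjusted p = 0.150), while at F1 it was -0.05 ± 0.60 (adjusted p = 0.966).

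INHBA at F5 had 18.4, 31.1 and 40.7 CPM in mes GCs, against 85.8, 73.2 and 61.2 CPM in NC GCs. All mes libraries were lower, with a log2 fold change of -1.34 ± 0.31 (adjusted p = 0.258). INHBA at F1 had 694.1, 699.1 and 722.7 CPM in bic GCs, 10.45, 25.5 and 458.5 CPM in mes GCs and 1.91, 1.303 and 8.69 CPM in NC GCs. All libraries of both drug groups were above all NC libraries. The bic mean was 137-fold that of NC (log2 6.84 ± 2.34, adjusted p = 0.0747), from 1 hen against 2, and the mes mean was 32.0-fold that of NC (4.73 ± 2.07, adjusted p = 0.268), a mean set by the library at 458.5 CPM. INHBA at syf 6 mm was 6.06 ± 2.09 for bic over NC (adjusted p = 0.785) and 1.25 without the library of hen 2 (adjusted p = 0.759).

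INHBB at F5 had 2166, 1254 and 410.5 CPM in mes GCs, against 782.1, 283.4 and 446.3 CPM in NC GCs (log2 1.29 ± 0.62, adjusted p = 0.364). The groups overlapped. INHBB at syf 6 mm had 693.7, 847.9 and 489.7 CPM in mes GCs, against 880.4, 2939 and 969.7 CPM in NC GCs, where all mes libraries were lower (-1.20 ± 0.54, adjusted p = 0.234). INHA at F1 had 1008, 1091 and 1043 CPM in bic GCs, 378.4, 1221 and 1007 CPM in mes GCs and 1518, 1454 and 1632 CPM in NC GCs. Every drugged library was below every NC library, with log2 fold changes of -0.85 ± 2.15 for bic (adjusted p = 0.909) and -1.06 ± 0.57 for mes (adjusted p = 0.333). The bic libraries were from 1 hen, the mes libraries from 3 and the NC libraries from 2. FST at F5 in bic GCs was 1.21 ± 0.89 over NC (adjusted p = 0.633), and 1.74 without hen 2 (adjusted p = 0.184).

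**Figure D3:**
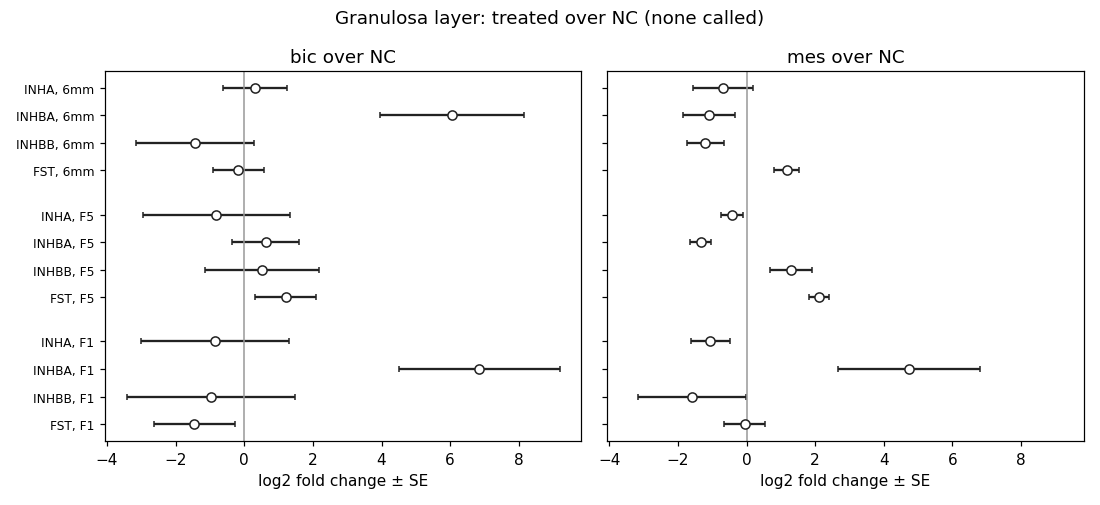
Log2 fold change of bic over NC and mes over NC in GCs at each stage, with its standard error (edgeR). No point passed the test; the shortest error bar away from 0 belongs to FST of mes F5 GCs (2.11 ± 0.30), and INHBA at F1 lies at 6.84 for bic and 4.73 for mes with wide errors.

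None of the 24 drug over NC tests of the members in GCs passed in edgeR, and 5 had an unadjusted p under 0.05. Of all genes 0% passed for bic over NC at syf 6 mm and F5 (793 and 1502 genes at an unadjusted p under 0.05), 7.92% for bic over NC at F1, and 0% for mes over NC at all stages (3853, 2350 and 3033 genes at an unadjusted p under 0.05 for syf 6 mm, F5 and F1). DESeq2 on the same summed counts passed 5 member tests: FST of mes over NC at syf 6 mm (adjusted p = 0.0154) and F5 (adjusted p = 1.519e-07), INHBA of mes over NC at F5 (adjusted p = 0.00606) and F1 (adjusted p = 0.0142), and INHBA of bic over NC at F1 (adjusted p = 0.00425). Limma-voom passed 2, FST of mes over NC at syf 6 mm (adjusted p = 0.0432) and INHBA of bic over NC at F1 (adjusted p = 0.0181). These tools also passed many other genes. DESeq2 passed 2404, 614 and 2113 genes for mes over NC at syf 6 mm, F5 and F1, and 3133 for bic over NC at F1. Limma-voom passed 1194 genes for mes over NC at syf 6 mm and 4540 for bic over NC at F1. For mes over NC, edgeR passed FST (1.51, adjusted p = 0.0331) and INHA (1.24, adjusted p = 0.0359) at syf 6 mm once replicate 2 of the NC group was left out. With that library INHA was at -0.68 ± 0.88 in edgeR (adjusted p = 0.646) and at 0.72 in limma-voom (adjusted p = 0.422): INHA had 52.3, 51.8 and 56.4 CPM in mes libraries, against 211 CPM in that NC library and 30.6 and 17.5 CPM in the NC libraries with theca markers.

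Whether the step from F5 to F1 differed between drugged and NC hens was tested as an interaction. For mes minus NC it was -2.22 ± 0.57 for FST (adjusted p = 0.0997) and 6.03 ± 1.89 for INHBA (adjusted p = 0.151), and for bic minus NC 6.22 ± 2.60 for INHBA (adjusted p = 0.182) and -2.66 ± 1.41 for FST (adjusted p = 0.285). Without hen 2 the bic minus NC value of FST was -3.20 (adjusted p = 0.0248). With all libraries 0 of 16 GC interactions passed, 5 had an unadjusted p under 0.05, and DESeq2 passed 3 and limma-voom 0. In edgeR 0% of all genes passed in both F5 over syf 6 mm interactions (1373 genes for bic and 1577 for mes at an unadjusted p under 0.05), and 3.76% for bic and 0.498% for mes in the F1 over F5 interactions. DESeq2 passed 409 genes for bic and 343 for mes in the F5 over syf 6 mm interactions. In the F1 over F5 interactions it passed 2756 for bic and 1307 for mes, and limma-voom passed 3149 and 1774. There 4342 genes for bic and 3088 for mes had an unadjusted edgeR p under 0.05.

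In TCs INHA was near the floor in most libraries. In syf 6 mm TCs no library held more than 4.15 CPM. In F5 TCs it had 676.4, 1.55 and 0.642 CPM in bic hens, 0.645, 2.47 and 0.695 CPM in mes hens and 1.56, 294.1 and 611.4 CPM in NC hens. In F1 TCs it had 13.4, 21.7 and 0.775 CPM in bic hens, 0.180, 2.05 and 1.80 CPM in mes hens and 360, 0.363 and 1.19 CPM in NC hens. The 4 libraries at 294.1 CPM and more were the 4 with 45.4 to 83.1 FPKM of GATA4, against 15.9 to 38.8 FPKM in the other 23 TC libraries. Their sum over the 6 granulosa markers was 351.1 to 462.8 FPKM, against 359.9 to 540.2 FPKM in syf 6 mm TCs, where INHA was near the floor. F5 over syf 6 mm of INHA in NC TCs was 7.29 ± 1.84 (edgeR adjusted p = 0.0561). Without the libraries high in GATA4 only replicate 1 of the NC F5 group is left, at 1.56 CPM. Such a fit cannot separate the granulosa marker from the hens.

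**Figure D4:**
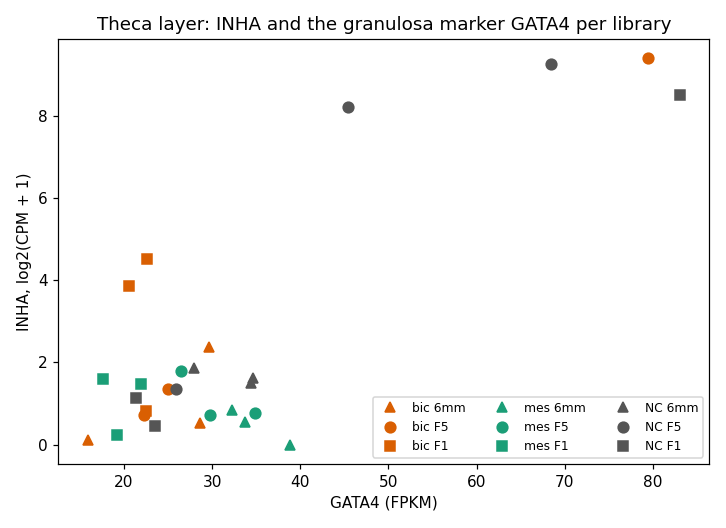
INHA as log2(CPM + 1) against GATA4 in FPKM in the 27 TC libraries, with colour for treatment and shape for stage. The 4 libraries with GATA4 above 40 FPKM lie at the top, at 294.1 to 676.4 CPM of INHA, and no other TC library holds more than 21.7 CPM.

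INHBA in TCs ranged from 1.21 to 26.1 CPM. At F5 it had 17.7, 10.2 and 18.2 CPM in bic hens, 7.68, 4.67 and 3.90 CPM in mes hens and 11.8, 9.53 and 11.9 CPM in NC hens. At F1 it had 16.8, 24.8 and 23.9 CPM in bic hens, 5.09, 3.46 and 6.89 CPM in mes hens and 6.28, 2.56 and 3.88 CPM in NC hens. All bic F1 libraries, from 2 hens, were above all NC F1 libraries, and the bic syf 6 mm libraries, at 6.44, 26.1 and 13.9 CPM, were above the NC ones at 2.54, 3.88 and 3.86 CPM. Bic over NC was 2.25 ± 0.54 at syf 6 mm (adjusted p = 0.863) and 2.26 ± 0.44 at F1 (adjusted p = 0.372), and mes over NC was -1.13 ± 0.29 at F5 (adjusted p = 0.402). F5 over syf 6 mm in NC TCs passed at 1.85 ± 0.24 (edgeR adjusted p = 0.0344). With the hen as a block the adjusted p was 0.0851, where 5 of all genes passed, against 1262 without the block. Leaving out replicate 2 or 3 of either stage gave an edgeR adjusted p of 0.0953 to 0.146. Without the F5 libraries high in GATA4, which left 1 NC F5 hen, the log2 fold change was 1.96.

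INHBB in TCs was at most 9.36 CPM outside 5 libraries. These were replicate 1 of the bic F5 group (204.8 CPM), replicates 2 and 3 of the NC F5 group (51.2 and 148.4 CPM), which were 3 of the 4 high in GATA4, and replicate 1 of the bic syf 6 mm group (43.7 CPM) and replicate 3 of the NC syf 6 mm group (34.7 CPM). In mes TCs, with no library high in GATA4 at F5 or F1, F1 over F5 was -2.42 ± 0.38 (adjusted p = 0.0106), between 0.935 CPM at F1 and 5.33 CPM at F5.

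FST was found in every TC library. At syf 6 mm it had 40.4, 92.6 and 19.4 CPM in bic TCs, 27.5, 15.4 and 28.7 CPM in mes TCs and 27.9, 15.62 and 50.8 CPM in NC TCs. At F5 it had 29.1, 10.7 and 9.76 CPM in bic TCs, 28.2, 14.5 and 28.6 CPM in mes TCs and 16.4, 16.1 and 22.4 CPM in NC TCs. At F1 it had 7.61, 9.48 and 6.68 CPM in bic TCs, 10.7, 6.80 and 11.2 CPM in mes TCs and 8.86, 19.9 and 8.72 CPM in NC TCs. The 3 treatments overlapped at each stage. In mes TCs FST fell with F1 over F5 (-1.23 ± 0.31, adjusted p = 0.0411) and with F1 over syf 6 mm (-1.13 ± 0.30, adjusted p = 0.0376); with any 1 mes F1 library left out neither passed (adjusted p from 0.0770 to 0.116).

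**Figure D5:**
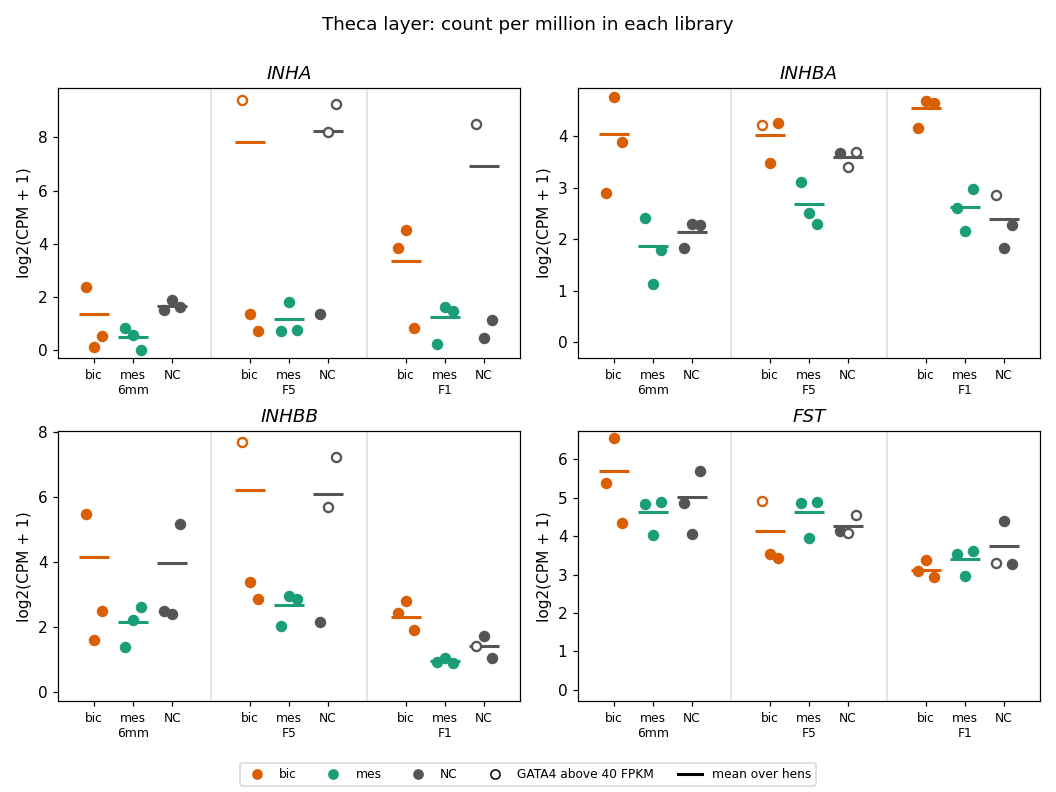
Level of each gene in every TC library as log2(CPM + 1), by stage and treatment, with bars for the mean over hens and open points for the 4 libraries of F5 and F1 follicles with GATA4 above 40 FPKM. INHA and INHBB are low except in a few libraries, most of them those open points, INHBA has its highest mean at each stage in bic hens, and FST lies lowest at F1.

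Of the member tests between stages in TCs, NC hens had 1 of 4 for F5 over syf 6 mm (7.63% of all genes passed), 0 of 4 for F1 over F5 (6.2%) and 0 of 4 for F1 over syf 6 mm (18.4%). Mes hens had 0 of 4 (0.0708%), 2 of 4 (15.1%) and 1 of 4 (23.5%). Bic hens had 0 of 4 in each, with 12.8%, 2.34% and 2.29% of all genes, 2 of the 12 tests at an unadjusted p under 0.05, and 1 passing in DESeq2 and 0 in limma-voom. Among all genes 5753 of 16725, 4198 of 16977 and 3763 of 17335 had such an edgeR p in bic hens. DESeq2 passed 3983, 3346 and 2583 of all genes in these bic contrasts. With the hen as a block, INHBA (1.43, adjusted p = 0.0346) and FST (-1.70, adjusted p = 0.0185) passed in bic TCs for F1 over syf 6 mm. The blocked fit passed 2842 of all genes in that contrast, against 397 without the block. Between drugs and NC in TCs, 0 of 24 tests passed in edgeR, 6 had an unadjusted p under 0.05, and DESeq2 passed 4 and limma-voom 0. The edgeR background there was 0.0296%, 0% and 0% of all genes for bic at syf 6 mm, F5 and F1 (483 and 1528 genes at an unadjusted p under 0.05 for the last 2 of these), and 0.0354%, 0.0122% and 0% for mes (1391 genes at F1). DESeq2 passed 45, 32 and 504 genes for bic at these stages and 64, 432 and 264 for mes. Without replicate 1 of the NC F5 TC group, whose 1.56 CPM of INHA was far below the other NC F5 libraries, mes over NC at F5 passed for INHA (-8.56, adjusted p = 0.0122) and INHBB (-4.34, adjusted p = 0.0328). That replicate stood out by INHA itself, so that the pass without it is no separate support. The NC F5 libraries that remained there were those high in GATA4. Without those, only replicate 1 of the NC F5 group is left, so that a fit cannot separate this granulosa marker from the hens. Of the 16 TC interactions 0 passed in edgeR, DESeq2 and limma-voom, with 4 at an unadjusted p under 0.05 (all genes 0% and 0.0224% for bic, 0% and 0% for mes). Among all genes 375 and 1290 for bic and 567 and 690 for mes had such an edgeR p.

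Between the layers, GCs over TCs, 16 of 36 member tests passed. At syf 6 mm INHA, INHBB and FST were higher in GCs of NC and mes hens, and INHBA did not pass. The log2 fold changes in NC hens were 5.28 ± 1.08 for INHA (adjusted p = 0.0170), 6.75 ± 1.21 for INHBB (adjusted p = 0.0119) and 3.67 ± 0.57 for FST (adjusted p = 0.00807), 3 of 4 members against 27% of all genes. With any 1 NC syf 6 mm TC library left out INHA did not pass (adjusted p from 0.0742 to 0.0803), nor did INHBB without replicate 1 or 2 (0.0538 and 0.0504) or FST without replicate 1 (0.0523), and INHA had 0.0773 with all samples in one fit and 0.0838 without hens 1 and 3 of the NC syf 6 mm GCs. In mes hens they were 6.88 ± 0.94, 7.57 ± 0.52 and 5.15 ± 0.30, again 3 of 4 (47.1% of all genes), with adjusted p of 0.00113, 7.601e-05 and 4.615e-05. In bic hens 0 of 4 passed (2.65% of all genes), and INHBB and FST passed without hen 2's GC libraries (5.58, adjusted p = 0.0496, and 3.13, adjusted p = 0.0385).

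At F5 all 4 members were higher in GCs of mes hens (46.8% of all genes), from 2.35 ± 0.35 for FST to 10.19 ± 0.82 for INHA (adjusted p = 0.00175 and 0.000162). In NC hens only INHBA passed among the members (2.75 ± 0.20, adjusted p = 0.000217; 36% of all genes), with 85.8, 73.2 and 61.2 CPM in GCs, against 11.8, 9.53 and 11.9 CPM in TCs. INHA was 2.63 ± 1.48 there (edgeR adjusted p = 0.197). Without the TC libraries high in GATA4, which left 1 NC F5 TC hen, INHA was at 10.23 and INHBA at 2.65. The libraries left out were also those high in INHA, so that the value of INHA without them is no separate support. In bic hens 0 of 4 passed (0.012% of all genes), and INHBA and FST passed without hen 2's GC libraries (3.47, adjusted p = 0.00278, and 2.43, adjusted p = 0.0236).

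At F1 FST passed as lower in GCs than in TCs in mes and NC hens. It had 2.36, 3.34 and 1.75 CPM in NC GCs, against 8.86, 19.9 and 8.72 CPM in NC TCs, and 1.74, 1.95 and 4.01 CPM in mes GCs, against 10.7, 6.80 and 11.2 CPM in mes TCs. No libraries overlapped, and the log2 fold changes were -2.05 ± 0.54 in NC hens (adjusted p = 0.0351; 0.0586 with the hen as a block) and -1.76 ± 0.44 in mes hens (adjusted p = 0.0202). Neither call was kept in all fits with 1 TC library left out (highest edgeR adjusted p 0.0721 in NC and 0.0735 in mes hens). The NC call was also not kept without either NC F1 GC hen (log2 -2.45 and -1.68). Such a fit leaves 1 hen in that group and takes in all samples. In bic hens FST was -2.64 ± 1.13 (adjusted p = 0.0934) and INHBB -1.41 ± 2.33 (adjusted p = 0.729). INHBA was higher in GCs of bic hens (5.27 ± 1.67, adjusted p = 0.0242) and mes hens (5.13 ± 1.55, adjusted p = 0.0389; 0.110 with the block), and INHA in GCs of mes hens (9.50 ± 1.20, adjusted p = 0.00178). The bic GC libraries of INHBA were from 1 hen and the TC libraries from 2, and without either TC hen the adjusted p was 0.123 or 0.121, while in mes hens it was 0.112 to 0.128 without any 1 TC library. The counts were 1 of 4 in NC (37% of all genes), 1 of 4 in bic (18.9%) and 3 of 4 in mes hens (37.6%). INHA in NC F1 follicles was 4.02 ± 2.67 (adjusted p = 0.269), with 1 TC library at 360 CPM, and passed without that library (11.49, adjusted p = 0.00332). That library stood out by INHA itself, so that the pass without it is no separate support. INHA also passed with the block (11.59, adjusted p = 0.0289). The hen of that library had no NC F1 GC library, so the block sets the same library aside and is no separate result.

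Of 19 further genes listed for receptors, signal transducers, binding proteins and processing proteases of the pathway, 18 had a locus, and the list was described by counts. In NC GCs 2 were higher and 1 lower of 15 tested for F5 over syf 6 mm (9.11% of all genes passed). For F1 over F5 4 were higher and 5 lower of 16 (29.6%), and for F1 over syf 6 mm 5 higher and 5 lower of 17 (29%). In mes GCs the counts were 3 and 1 of 16 (24.6%), 5 and 3 of 15 (18.2%), and 7 and 3 of 16 (34.9%). In bic GCs none passed, against 0%, 0.146% and 0.479% of all genes. The median log2 fold change of the list was 0.20, 0.65 and 0.86 over the 3 NC contrasts. No listed gene passed in any drug over NC test or interaction in either layer, where 0% to 7.92% of all genes passed.

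The 5 listed genes that passed in the most contrasts were SMAD4, FURIN, FSTL1, TGFBR3 and SMAD2. TGFBR3, the inhibin co-receptor betaglycan, averaged 1.39 FPKM in syf 6 mm, 3.46 FPKM in F5 and 39.9 FPKM in F1 GCs of NC hens, and F1 over syf 6 mm was 5.75 ± 0.91 (adjusted p = 0.0100). It stood at 14.7 FPKM in mes F1 GCs, and in TCs it averaged 52.7, 33.8 and 20.7 FPKM in syf 6 mm, F5 and F1 follicles of NC hens. SMAD2, a transducer of activin signals, rose with selection in GCs (F5 over syf 6 mm 2.73 ± 0.65 in NC hens, adjusted p = 0.0483, and 2.51 ± 0.17 in mes hens, adjusted p = 0.000568). FSTL1, a follistatin-like secreted protein, averaged 25.0 FPKM in F1 and 197.8 FPKM in F5 GCs of NC hens (-2.51 ± 0.31, adjusted p = 0.00382), and FURIN, a protease that cleaves precursors of this family, passed for F1 over F5 in NC GCs (0.99 ± 0.28, adjusted p = 0.0406). SMAD4, the shared partner of the receptor-activated SMADs, fell by 5.24 for F1 over F5 in NC GCs (SE 0.67, adjusted p = 0.00406), as counted for the locus that carries this name. FSTL1, whose locus overlaps another gene on the same strand, may share reads with it, whereas no other gene overlaps a member.

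For each member the genes most alike over the 18 group means of log2(FPKM + 1) were found among 11928 genes, as a description over groups that share hens. For INHA they were FAM189A2 (Pearson r = 0.970), STRA6 (0.963) and SLC5A6 (0.956). For INHBA they were GRAMD3 (0.920), GUCY2C (0.913) and CTSO (0.896). For INHBB they were PAK1 (0.971), SGK223 (0.968) and MRM1 (0.954), and for FST they were INADL (0.971), DNM1 (0.965) and FANCE (0.964). Among the members INHBB and FST were the most alike pair (0.817), INHA and INHBA came next (0.556), and INHA and FST had -0.126.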

How the data were processed

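RNA was sequenced from GCs and TCs of hens in 18 groups of 3 libraries. Per the study's methods, the authors trimmed reads, aligned them to Gallus_gallus-5.0 with HISAT2 2.1.0, removed duplicates and quantified annotated transcripts with StringTie 1.3.4d; their submission also names DESeq2 1.26.0. The authors deposited raw counts per gene and, per library, FPKM and TPM of each transcript, which were not filtered. FPKM were summed over a gene's transcripts; TPM served only as an alternative to FPKM for levels and are on another scale (INHA averaged 3735 TPM against 1806 FPKM in NC F5 GCs). Rows without a gene identifier, at most 0.605% of counts, were left out. A read pair can add up to 4 counts.

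Libraries of 1 hen and library number, as named in the study's table of raw data, were summed: chi-square over its degrees of freedom, after division by 4, was 1.163 to 1.443 between them (5 pairs), against 2.775 to 13.42 between the other libraries of a group (49 pairs). Counts were tested in edgeR 4.0.16 (R 4.3.3; TMM factors, filterByExpr, quasi-likelihood F test, Benjamini-Hochberg over all genes), on the compared groups alone, or on all samples of the layers where a group had 1 hen, whose spread is then taken from the other groups. Standard errors are the log2 fold change divided by the root of F. The test was checked on simulated data. Alternatives were DESeq2 1.42.0, RLE factors, no count filter, a log2 fold of 1.5 and all samples in one fit. Others were labelled libraries as replicates, hens as a block and leaving out hens. Limma 3.58.1 was also used, as voom with sample quality weights, which give outlying libraries less weight.

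The stages and layers of a treatment came from the same hens, except that some hens had no library of F1 GCs (bic and NC groups) or F1 TCs (bic group). Deviations from group means correlated within a hen with a median of 0.194 over 44 stage pairs (-0.379 to 0.408) and 0.120 over 23 layer pairs (-0.284 to 0.518). The members and lists were chosen with earlier results of these data known. Named pathway genes were those passing in the most contrasts, and alike genes the 3 with the highest correlation; no sequences are shown.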

Additional observations from a re-analysis of the deposited data

Results flagged for a closer look

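INHBA in GCs moved in opposite directions in mes hens at F5 and F1: every mes F5 library was below every NC F5 library, with a ratio of mean CPM of 0.409, and every mes F1 library was above every NC F1 library, with a ratio of 32.0. Neither contrast passed in edgeR (adjusted p = 0.258 at F5 and 0.268 at F1), and the F1 ratio was set by 1 library at 458.5 CPM: the log2 fold change at F1 lay from 1.59 to 6.38 with 1 hen left out. The change between the stages was tested as an interaction and gave 6.03 ± 1.89 on the log2 scale (edgeR adjusted p = 0.151; DESeq2 adjusted p = 0.00289). The F1 follicles came from 3 mes and 2 NC hens.

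INHBB at F1 moved in opposite directions between the layers in bic hens: the ratio of mean CPM of bic over NC was 0.630 in GCs and 2.39 in TCs, with no overlap of libraries in either. Neither passed in edgeR (log2 -0.97 ± 2.46, adjusted p = 0.911, in GCs, and 1.15 ± 0.49, adjusted p = 0.542, in TCs), and the libraries came from 1 bic and 2 NC hens in GCs and 2 bic and 3 NC hens in TCs. This difference was not tested, and both layers had under 6 CPM of INHBB in every F1 library of these groups.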

How the results depend on the processing

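RLE factors and no filter on low counts left every count of member calls as it was. With the hen as a replicate block the count was 5 against 9 in NC GCs, 2 against 1 in bic GCs, 0 against 1 in NC TCs and 2 against 0 in bic TCs. DESeq2 gave 4 in bic GCs, 5 in NC TCs, 1 in bic TCs, 5 and 4 against 0 for drug over NC in GCs and TCs, and 3 against 0 for GC interactions; it gave no adjusted p for INHA of NC F5 over syf 6 mm GCs. Limma-voom gave 4 in bic GCs, 2 in NC TCs, 2 for drug over NC in GCs and 27 against 16 for GCs over TCs. It passed more of all genes than edgeR in every GCs over TCs contrast. In bic hens these were 5641, 8719 and 7847 genes at syf 6 mm, F5 and F1, against 453, 2 and 3996 in edgeR. The rise to 27 is thus not particular to the members. All samples in one fit gave 6 against 9 in both NC and mes GCs, 2 in NC TCs, 3 in bic TCs and 0 against 3 in mes TCs, and a log2 fold change of at least 1.5 gave 1 in mes TCs. Labelled libraries as replicates gave 3 in bic GCs, 1 in bic TCs, 3 for drug over NC and 2 for interactions in GCs.

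Leaving out hens 1 and 3 of NC syf 6 mm GCs gave 5 in NC GCs. Leaving out hen 2's bic syf 6 mm and F5 GC libraries, which were picked from these same data, gave 9 in bic GCs and 1 GC interaction. Leaving out bic syf 6 mm hen 1 as well, chosen after seeing the data, left 1 hen in that group, so that no count is given. Leaving out the TC libraries high in GATA4, also chosen after seeing the data, gave 0 in NC TCs. Leaving out 1 replicate at a time gave 5 to 9 in NC GCs with the F1 hens kept, 0 to 2 in bic GCs, 0 to 3 in NC TCs, 1 to 4 in mes TCs, and 0 to 2 for drug over NC in either layer. INHA of mes over NC at syf 6 mm reversed to 1.24 without NC replicate 2 and lay at -1.18 without NC replicate 3, the lowest value with 1 replicate left out. The cause was not tested. With 1 to 3 hens a group, and with INHBB in F1 GCs at 0 to 125 counts a library, small differences were not detectable.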
